A study of Mus musculus with 2 samples.

Results

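The genes of dead-cell uptake and scavenging described here across the monocytes and macrophages of mouse lung carcinoma tumors were Mertk, Axl, Gas6, Pros1, Msr1, Cd36, Stab1, Cd163, Sirpa and Cd47. They were taken by symbol and are 10 of the 27998 genes in the count matrix, and all 10 had UMIs (unique molecular identifiers, 1 for each captured transcript) in both libraries. The cells came from subcutaneous tumors of LLC, the Lewis lung carcinoma line, grown in C57/BL6 mice and taken on day 14. The library labelled wt is by its title and the design text from miR-21 flox/flox mice, and the library labelled cko from miR-21 flox/flox mice that also carried LysMCre. Both groups therefore carried the floxed alleles, and the Cre is driven from the Lyz2 gene, which is active in monocytes, macrophages and granulocytes. Each library was 1 pool of 3 mice, aged 10 weeks by the labels, run on the 10x 3′ v2 chemistry.

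The labels disagree with themselves, since the source field of each library names the genotype of the other, and a protocol field names a macrophage sort in place of the CD45 sort of the design text and miR-21 null mice in place of a LysMCre deletion. Lyz2, the gene that holds the Cre insertion, was at 19857 CPM (counts per 10 to the power of 6 UMIs) in the monocytes and macrophages of the library labelled wt and at 9394 in those of the library labelled cko, and T and NK cells made up 200 and 240 of the droplets. With 1 library a group there is no replicate error, so no test between the libraries was made. All intervals are exact 95% intervals for counting error only. The libraries held 2449 and 2718 cells with a median of 8359 and 8247 UMIs, 5 barcode sequences occurred in both, and 4 and 14 cells were left out by quality. Of the kept cells, 1890 and 2026 met the monocyte and macrophage gate.

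Clearance of dying cells by macrophages begins when phosphatidylserine appears on the outer membrane of the dying cell. The soluble ligands GAS6 and protein S bind that lipid at one end and receptor tyrosine kinases at the other. GAS6 binds AXL and MERTK, and protein S binds MERTK. Scavenger receptors such as MSR1, CD36, stabilin-1 and CD163 take up modified lipoproteins, dying cells or hemoglobin complexes, whereas CD47 on the target cell engages SIRPα on the phagocyte and restrains uptake. In tumors, MERTK and the scavenger receptors are commonly used as features of mature macrophages.

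States were gated on UMIs of other genes, so none of the 10 genes entered the gate. Classical monocytes had Ly6c2 and fewer than 20 C1q UMIs per 10000, and were divided by 5 interferon-induced genes into 463 and 439 interferon-low cells and 51 and 43 interferon-high cells (library labelled wt, then library labelled cko, in this order throughout). Ace/Treml4/Eno3 monocytes numbered 334 and 335 and are named by their gate alone, since they kept Ly6c2 at 523 and 448 CPM and Ccr2 at 596 and 633 CPM. Cells low for both Ly6c2 and C1q numbered 321 and 304, and cells positive for both numbered 208 and 182. The Ly6c2-low C1q macrophages, 513 and 723 in all, comprised 171 and 199 cells in which Vcam1, Ccl8 and Folr2 had the larger sum of UMIs, 127 and 272 in which Cd300e, Clec4b1 and Pparg did, and 215 and 252 others. Cells with both marker sets went to the set with more UMIs, so either state can hold cells with markers of the other. By the gate itself, C1qa was at 4463 and 4560 CPM in the Ly6c2-low C1q macrophages and at 56.3 and 55.5 CPM in classical monocytes. Ccr2, a monocyte receptor that no gate used, was at 918 and 1058 CPM in classical monocytes and at 296 and 320 CPM in the Ly6c2-low C1q macrophages. Levels are CPM over the summed UMIs of a state and are compared only within a gene, since 3′ counts of different genes are not on 1 scale.

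**Figure D1:**
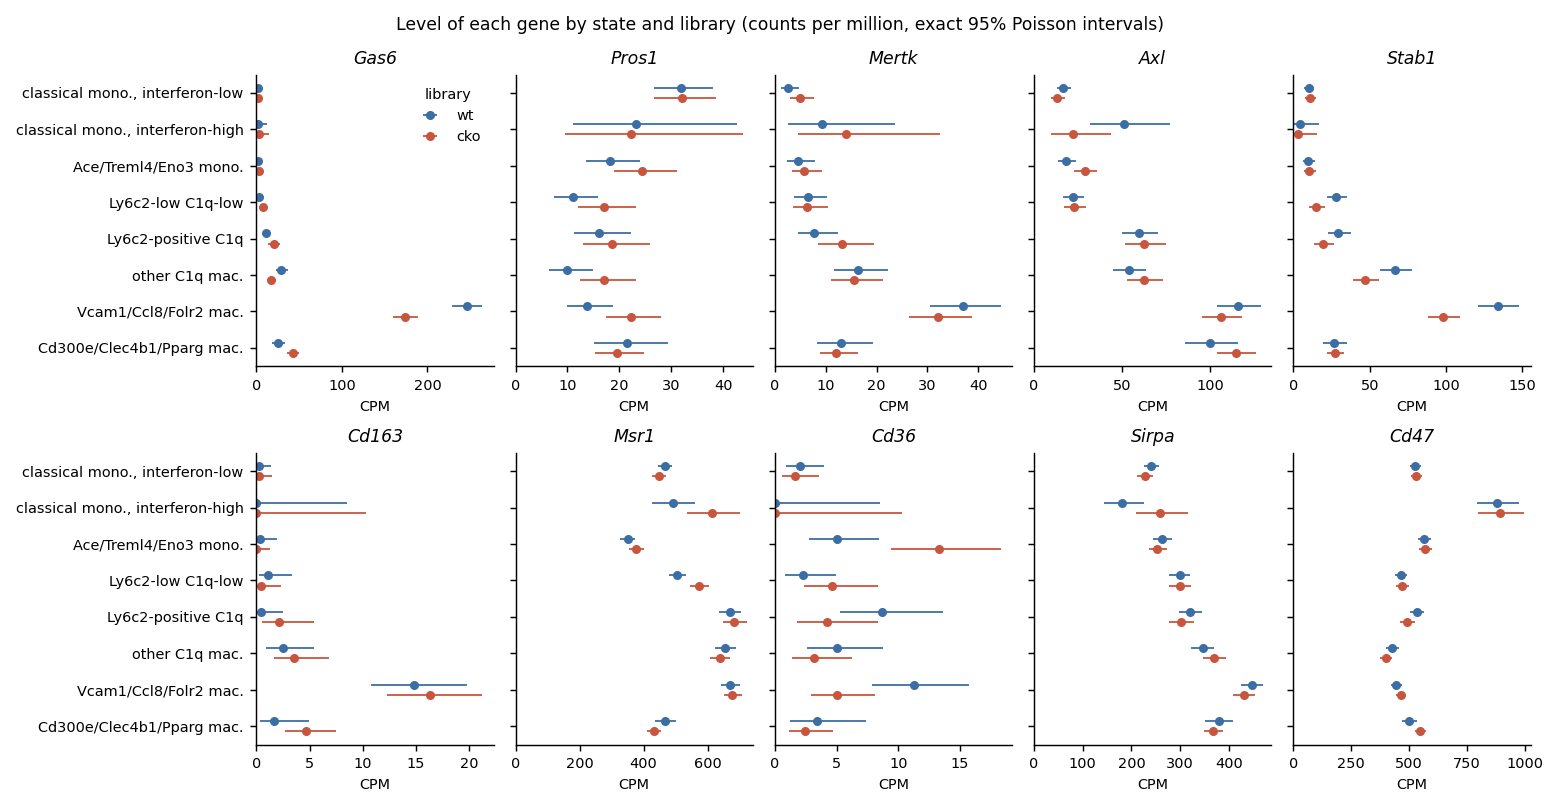
CPM of each gene (x axis, linear, starting at 0) in the 8 states (y axis) of the library labelled wt (blue) and the library labelled cko (red), with exact 95% Poisson intervals. Gas6 reached 246 and 174 CPM in Vcam1/Ccl8/Folr2 macrophages, whereas Pros1 had its highest levels, 31.9 and 32.1 CPM, in interferon-low classical monocytes.

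The ligands had their highest levels in different states. Gas6 (ENSMUSG00000031451, chr8:13465374-13494490, minus strand, GRCm38) had 8 and 10 UMIs in all classical monocytes, or 1.84 and 2.48 CPM, and 878 and 783 UMIs in Ly6c2-low C1q macrophages, or 121 and 82.3 CPM. The ratio was 65.6 (33.1 to 152) in the library labelled wt and 33.2 (18.0 to 69.5) in the library labelled cko. T and NK cells, which should lack Gas6, held it at 1.23 and 2.03 CPM, so the monocyte level is near background and the size of the ratio depends on it. Within the macrophages Gas6 was concentrated in the Vcam1/Ccl8/Folr2 state. Its levels there, 246 and 174 CPM, stood against 29.2 and 16.7 CPM in the other C1q macrophages and 25.3 and 42.7 CPM in the Cd300e/Clec4b1/Pparg macrophages. Vcam1/Ccl8/Folr2 macrophages were 9.05% and 9.82% of monocytes and macrophages and held 16.1% and 16.4% of their UMIs, but 82.3% and 68.2% of their Gas6 UMIs. The Ly6c2-positive C1q cells were at 11.9 and 20.2 CPM, and at 7.33 and 12.7 CPM without the UMIs of the cell with most in each library. In the library labelled wt the other C1q and the Cd300e/Clec4b1/Pparg macrophages had overlapping intervals, and in the library labelled cko the other C1q and the Ly6c2-positive C1q cells did. Every C1q-low state was at or under 8.07 CPM.

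Gas6 was also found in more Vcam1/Ccl8/Folr2 macrophages than T and NK cells at equal depth. After thinning each cell to 3000 UMIs, 40.4% (32.9 to 48.1) and 29.1% (22.9 to 36.0) of Vcam1/Ccl8/Folr2 macrophages had a Gas6 UMI, against 0% (up to 1.83) and 0.833% (0.101 to 2.98) of T and NK cells, which should lack the gene. Without thinning the shares were 70.8% and 60.8% in the macrophages, whose median depths were 18147 and 15762 UMIs, and 1.00% and 1.67% in T and NK cells, whose median depths were 6191 and 6765 UMIs.

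Pros1 (ENSMUSG00000022912, chr16:62854307-62929346, plus strand) encodes protein S, a ligand of MERTK and also an anticoagulant cofactor. It was at 31.0 and 31.2 CPM in classical monocytes and at 14.4 and 19.9 CPM in Ly6c2-low C1q macrophages, a ratio of 0.465 (0.357 to 0.604) and 0.636 (0.505 to 0.803). Across states the highest levels were those of interferon-low classical monocytes, 31.9 (26.6 to 38.0) and 32.1 (26.6 to 38.5) CPM. The remaining states lay between 10.0 and 24.4 CPM with intervals that mostly overlapped. Over the 16 combinations of state and library, Gas6 and Pros1 had a Pearson r of -0.36, given as a description since the points share libraries and cell gates.

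The promoters of the ligand pair are shown because the genes had their highest levels in different states. Both are from RefSeq (GRCm38.p6) and run from 250 bases before to 50 after the start site, and capitals mark motif matches. Gas6 lies at chr8:13494486-13494785 on the minus strand and Pros1 at chr16:62854057-62854356 on the plus strand.

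Gas6: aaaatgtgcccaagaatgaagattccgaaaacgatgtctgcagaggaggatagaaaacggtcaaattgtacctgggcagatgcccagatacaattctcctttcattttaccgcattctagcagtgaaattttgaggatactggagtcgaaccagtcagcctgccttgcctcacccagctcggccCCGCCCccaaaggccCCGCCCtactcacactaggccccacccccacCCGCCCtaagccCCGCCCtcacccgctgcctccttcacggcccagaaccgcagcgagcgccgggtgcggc

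Pros1: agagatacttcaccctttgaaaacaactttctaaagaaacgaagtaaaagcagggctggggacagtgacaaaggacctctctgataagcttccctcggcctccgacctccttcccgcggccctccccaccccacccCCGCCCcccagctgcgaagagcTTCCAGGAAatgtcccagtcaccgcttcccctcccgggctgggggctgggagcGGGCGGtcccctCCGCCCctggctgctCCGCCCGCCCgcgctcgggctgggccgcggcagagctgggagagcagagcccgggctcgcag

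In all, 6 motifs were searched on both strands in the 8 members with a listed promoter (Msr1 and Sirpa had none). The GC box GGGCGG, or CCGCCC on the other strand, occurred in Gas6, Pros1, Mertk, Axl, Cd36 and Cd47, beside 35.7% of 32851 promoters. Gas6 had 4 such matches and Pros1 had 5, of which the last 2 overlap. Pros1 was the only one with another match, TTCCAGGAA at -92 from the start site, which fits the interferon-gamma-activated site TTCNNNGAA found in 8.30% of promoters. The TATA box TATAAA (13.6%), the PU.1 core GAGGAAGT (3.20%), the MAF half-site TGCTGAC (4.67%) and the core of the interferon-stimulated response element, GAAA and GAAA 2 bases apart (3.44%), were in none of the 8. These matches describe the letters of the window alone.

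The receptor kinases were higher in C1q macrophages, with different spread among their states. Mertk (ENSMUSG00000014361, chr2:128698956-128802894, plus strand) was at 3.22 and 5.70 CPM in classical monocytes and at 24.3 and 20.1 CPM in Ly6c2-low C1q macrophages, a ratio of 7.55 (4.38 to 14.1) and 3.52 (2.28 to 5.69). Its highest levels were in Vcam1/Ccl8/Folr2 macrophages, 37.0 (30.6 to 44.5) and 32.0 (26.3 to 38.7) CPM, against 16.3 and 15.5 CPM in the other C1q macrophages and 13.0 and 12.1 CPM in the Cd300e/Clec4b1/Pparg macrophages. The last 2 states did not differ beyond their counting intervals.

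Axl (ENSMUSG00000002602, chr7:25757273-25788705, minus strand) had 87 and 56 UMIs in classical monocytes and 667 and 930 UMIs, or 91.6 and 97.8 CPM, in Ly6c2-low C1q macrophages, a ratio of CPM of 4.58 (3.66 to 5.80) and 7.04 (5.38 to 9.40). Unlike Gas6 and Mertk, it was about as high in both marker-defined macrophage states, with 116 and 106 CPM in Vcam1/Ccl8/Folr2 macrophages and 100 and 115 CPM in Cd300e/Clec4b1/Pparg macrophages. The log2 ratio of these states was 0.21 (-0.05 to 0.48) and -0.11 (-0.32 to 0.09). The Ly6c2-positive C1q cells were at 59.6 and 62.6 CPM and the other C1q macrophages at 53.8 and 62.5 CPM. T and NK cells held Axl at 7.37 and 9.12 CPM, and the part of background in the ratio to classical monocytes was not tested. These levels were 14.3% and 15.2% of the monocyte and macrophage level, more than the 2.31% to 2.88% at which T and NK cells held C1q transcripts.

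Axl was also found in cells with keratin transcripts. All 15 cells of the library labelled cko with at least 10 UMIs of Krt8 and Krt18, keratins of epithelial and carcinoma cells, had Axl, at 122 CPM and 103 UMIs in sum, and none had a Gas6 UMI, which at a floor of 3 counts over the 845589 UMIs of these cells allows up to 3.55 CPM. The 3 such cells of the library labelled wt had Axl at 86.3 CPM. One of the 15, with 138708 UMIs, met the Ace/Treml4/Eno3 gate and gave 22 of the 80 Axl UMIs of that state, and 12 of the 15 were ungated. With this cell the Axl log2 ratio between libraries in Ace/Treml4/Eno3 monocytes was 0.66 (0.13 to 1.19), and without it 0.27 (-0.30 to 0.84).

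The scavenger receptors differed in how far they were concentrated in macrophages. Stab1 (ENSMUSG00000042286, chr14:31139013-31168641, minus strand), an endocytic receptor for modified lipoproteins and matrix fragments, was at 9.43 and 9.92 CPM in classical monocytes and at 85.5 and 57.5 CPM in Ly6c2-low C1q macrophages, a ratio of 9.06 and 5.80. It reached 134 (121 to 148) and 98.2 (87.9 to 109) CPM in Vcam1/Ccl8/Folr2 macrophages and 66.3 and 47.0 CPM in the other C1q macrophages, but only 26.5 and 27.0 CPM in the Cd300e/Clec4b1/Pparg macrophages. The Ly6c2-low C1q-low cells were at 28.1 and 14.9 CPM.

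Cd163 (ENSMUSG00000008845, chr6:124304656-124330527, plus strand), the receptor for haptoglobin and hemoglobin, was the rarest member with 61 and 87 UMIs. Classical monocytes held 1 UMI in each library and Ly6c2-low C1q macrophages 55 and 81, a ratio of 32.9 (5.66 to 1321) and 34.3 (5.99 to 1373). Vcam1/Ccl8/Folr2 macrophages held 75.4% and 63.2% of the Cd163 UMIs, at 14.8 (10.8 to 19.8) and 16.3 (12.3 to 21.2) CPM, and no other monocyte or macrophage state was above 4.68 CPM.

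Msr1 (ENSMUSG00000025044, chr8:39581685-39642673, minus strand), the class A scavenger receptor, was present in every state. It was at 469 and 463 CPM in classical monocytes and at 616 and 574 CPM in Ly6c2-low C1q macrophages, a ratio of 1.31 and 1.24. Vcam1/Ccl8/Folr2 macrophages (671 and 678 CPM), Ly6c2-positive C1q cells (669 and 683 CPM) and other C1q macrophages (656 and 638 CPM) stood together at the top with overlapping intervals. Cd300e/Clec4b1/Pparg macrophages were lower at 467 and 433 CPM, and Ace/Treml4/Eno3 monocytes lowest at 350 and 377 CPM.

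Cd36 (ENSMUSG00000002944, chr5:17781690-17888801, minus strand), a class B receptor for oxidized lipids and fatty acids, had 100 and 96 UMIs in all monocytes and macrophages. Single cells decided several of its values. In Vcam1/Ccl8/Folr2 macrophages of the library labelled wt it was at 11.3 CPM, but 1 cell gave 18 of the 35 UMIs, and without the UMIs of the cell with most in each library the levels were 5.48 and 4.45 CPM. In Ace/Treml4/Eno3 monocytes it was at 5.01 and 13.3 CPM, and 1 cell of the library labelled cko gave 13 of 37 UMIs. Cd36 was the only member at least 2-fold higher in this state than in interferon-low classical monocytes in both libraries (1 of 9 with at least 10 UMIs, beside 1.47% of all genes). The dendritic cells held Cd36 at 12.6 and 11.4 CPM, from 6 UMIs in each library.

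The inhibitory pair differed by less than 2-fold between classical monocytes and C1q macrophages. Sirpa (ENSMUSG00000037902, chr2:129592835-129632228, plus strand), whose reads can be shared with the near-identical Sirpb1 copies and are uncertain to that extent, was at 235 and 230 CPM in classical monocytes and at 397 and 390 CPM in Ly6c2-low C1q macrophages, a ratio of 1.69 in each library. Its highest level was again in Vcam1/Ccl8/Folr2 macrophages, 447 and 431 CPM. Cd47 (ENSMUSG00000055447, chr16:49800533-49915010, plus strand) went the other way, from 561 CPM in classical monocytes of either library to 452 and 478 CPM in Ly6c2-low C1q macrophages, a ratio of 0.805 and 0.853. It was at 676 and 625 CPM in T and NK cells and at 757 and 831 CPM in dendritic cells, so that it was the only member above its monocyte and macrophage level in T and NK cells of both libraries.

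**Figure D2:**
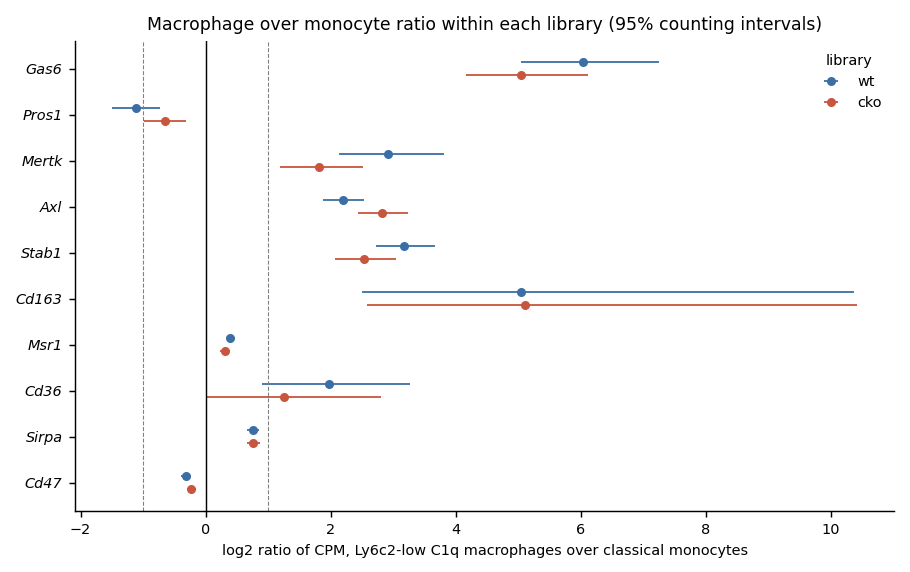
The log2 ratio of CPM in Ly6c2-low C1q macrophages over classical monocytes (x axis) for each gene (y axis) within each library, with 95% counting intervals and dashed lines at 2-fold. Gas6, Mertk, Axl, Stab1, Cd163 and Cd36 lie past 2-fold in both libraries, and Pros1 and Cd47 lie below 0 in both.

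In counts, 6 of the 10 members were at least 2-fold higher in Ly6c2-low C1q macrophages than in classical monocytes in both libraries, beside 8.97% of 10719 genes, and 0 of 10 were at least 2-fold lower in both, beside 3.97%. The median log2 ratio of the members was 2.09 and 1.54, and that of all genes 0.12 in each library. In the cells positive for both Ly6c2 and C1q, Mertk, Axl, Gas6 and Cd36 were at least 2-fold above classical monocytes in both libraries (4 of 9, beside 1.75%). Between these cells and the other C1q macrophages, Stab1 was the only member at least 2-fold higher in the latter in both libraries (1 of 9, beside 0.751%). Mertk, Gas6, Stab1 and Cd163 were at least 2-fold higher in Vcam1/Ccl8/Folr2 than in other C1q macrophages (4 of 10, beside 3.18%), and 0 of 9 members were in Cd300e/Clec4b1/Pparg than in other C1q macrophages (beside 1.96%). Between these marker-defined states, Mertk, Gas6, Cd36, Stab1 and Cd163 were at least 2-fold higher in the Vcam1/Ccl8/Folr2 state (5 of 10, beside 1.38%). The Vcam1/Ccl8/Folr2 cells were also the deepest. Handling genes (immediate-early and heat-shock genes) summed to 691 and 1052 CPM in them and to 1401 and 1975 CPM in the other C1q macrophages, and the platelet list, mostly Pf4, to 2033 and 1437 CPM and to 1106 and 789 CPM. The part of these in the counts was not tested.

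**Figure D3:**
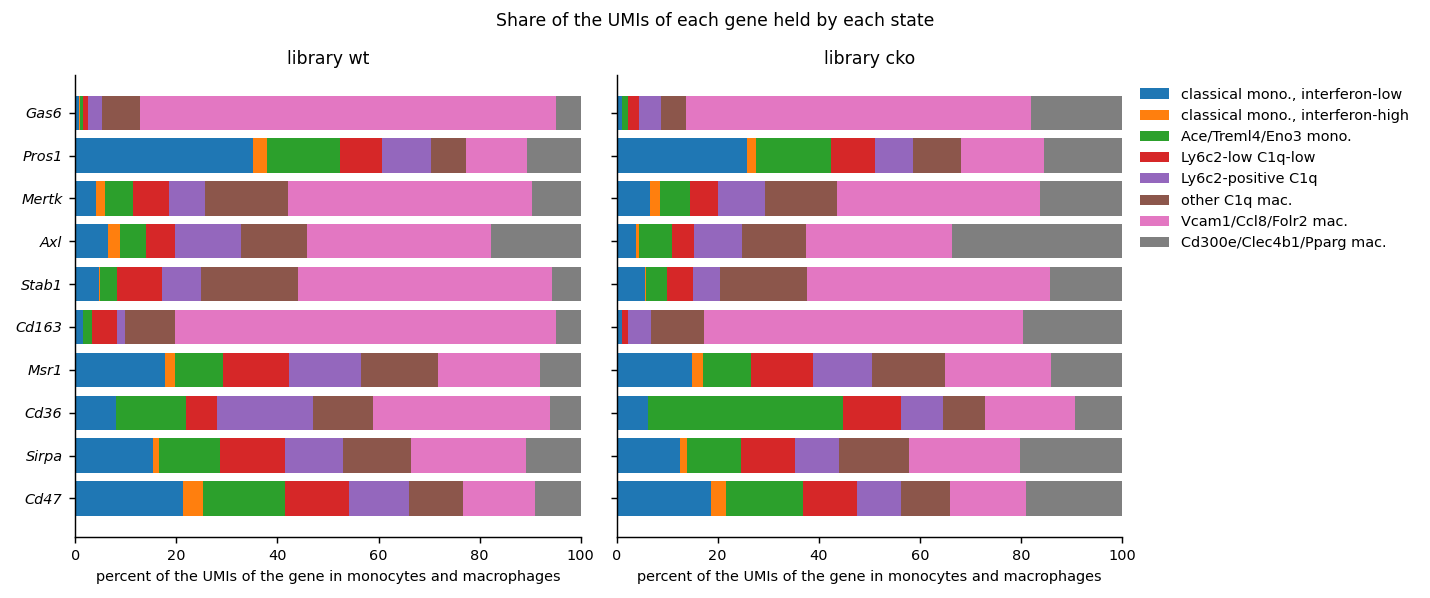
Percent of the monocyte and macrophage UMIs of each gene (x axis, bars summing to 100) held by each of the 8 states (colors) in the library labelled wt (left) and the library labelled cko (right). Vcam1/Ccl8/Folr2 macrophages held 82.3% and 68.2% of Gas6 and 75.4% and 63.2% of Cd163, but 14.2% and 15.0% of Cd47.

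Against lymphocytes, 8 of 10 members were at least 2-fold higher in monocytes and macrophages than in T and NK cells in both libraries (beside 12.9% of all genes), the exceptions being Cd47 and Cd163. Cd163 had no UMI in T and NK cells, which allows a level of up to 73.7% and 45.1% of that in monocytes and macrophages as the upper end of the interval. Against dendritic cells, 7 of 10 were at least 2-fold higher (beside 7.05%) and Cd36 was at least 2-fold lower (1 of 10, beside 8.57%). Markers of other cell types were summed in the Ly6c2-low C1q macrophages. The 5 fibroblast genes summed to 4.95 and 0.946 CPM with Col1a2 at 0 in both libraries, and to 16.3 and 0.826 CPM in the Cd300e/Clec4b1/Pparg state. In the library labelled wt, that state held 29 of the 36 UMIs, and all 29 were of Dcn. The 4 endothelial genes summed to 67.2 and 83.3 CPM, mostly Pecam1, which macrophages also express, with Cldn5 at 0. The platelet list was high there, at 1293 and 793 CPM, mostly from Pf4. The part of these cells in the members' levels was not tested.

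Receptor and ligand were also counted in the same cells. Of the 121 Vcam1/Ccl8/Folr2 macrophages with a Gas6 UMI in each library, 81.0% (72.9 to 87.6) and 81.8% (73.8 to 88.2) also had Axl or Mertk. Of the cells without Gas6 it was 72.0% and 69.2%, but the cells with Gas6 were deeper, at a median of 19470 against 14315 and 17684 against 12490 UMIs, and the part of depth was not tested. For Pros1 in the same state the shares with Axl or Mertk were 88.6% and 83.3% of cells with it and 75.7% and 74.5% of cells without it. Cells with Pros1 were deeper too, at a median of 21557 against 17691 and 19659 against 14263 UMIs, and the part of depth was not tested. The shares count Axl and Mertk together and do not give that of Mertk alone. In interferon-low classical monocytes the shares with Axl or Mertk were 7.53% (3.08 to 14.9) and 3.37% (0.701 to 9.54) with Pros1 and 10.3% and 13.4% without it. The 200 and 240 T and NK cells held 12 and 18 Axl UMIs, and the part of background in these low shares was not tested.

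Cd47 stood out among cells with an interferon response. Within each of 5 classes, cells with at least 20 UMIs per 10000 of Ifit1, Ifit2, Ifit3, Rsad2 and Cxcl10 in sum were set against the remaining cells of the class. Cd47 was higher in the interferon-high cells in all 10 comparisons, from 1.35 to 1.86-fold, with every interval above no change. In classical monocytes it was at 879 and 890 CPM in interferon-high and 526 and 529 CPM in interferon-low cells. Leaving out the UMIs of the cell with most Cd47 on each side, a setting chosen after the data were seen, gave 1.10 to 1.74-fold, with 8 of the 10 intervals above no change.

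Axl was higher in the interferon-high cells in all 10 comparisons as well, from 1.07 to 4.53-fold, but 6 of the intervals were above no change, and without the top cell on each side the ratio was above 1 in 9 of 10 and its interval in 4. Its values in classical monocytes were 51.0 against 16.6 CPM and 22.2 against 13.1 CPM, and 1 cell gave 8 of the 22 interferon-high UMIs of the library labelled wt. Cd47 and Axl were the 2 of 7 members with enough UMIs that were higher throughout, beside 4.75% of 7620 genes. Another 2 members differed by at least 2-fold in classical monocytes of both libraries on 1 to 5 interferon-high UMIs, with intervals that include no change. Mertk was higher (1 of 7, beside 3.08% of all genes), at 9.27 against 2.55 and 13.9 against 4.90 CPM. Stab1 was lower (1 of 7, beside 2.89%), at 4.64 against 9.96 and 2.78 against 10.6 CPM. Sirpa, which encodes the receptor of CD47, was lower in the interferon-high cells in 8 of 10 comparisons, all 5 of the library labelled wt among them, with 3 intervals below no change and 0 above. The median of all genes was itself below 0 in classical monocytes, at a log2 ratio of -0.12 and -0.11, and the top cells were not left out for Sirpa. In classical monocytes it was at 181 against 240 CPM and at 259 against 228 CPM.

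**Figure D4:**
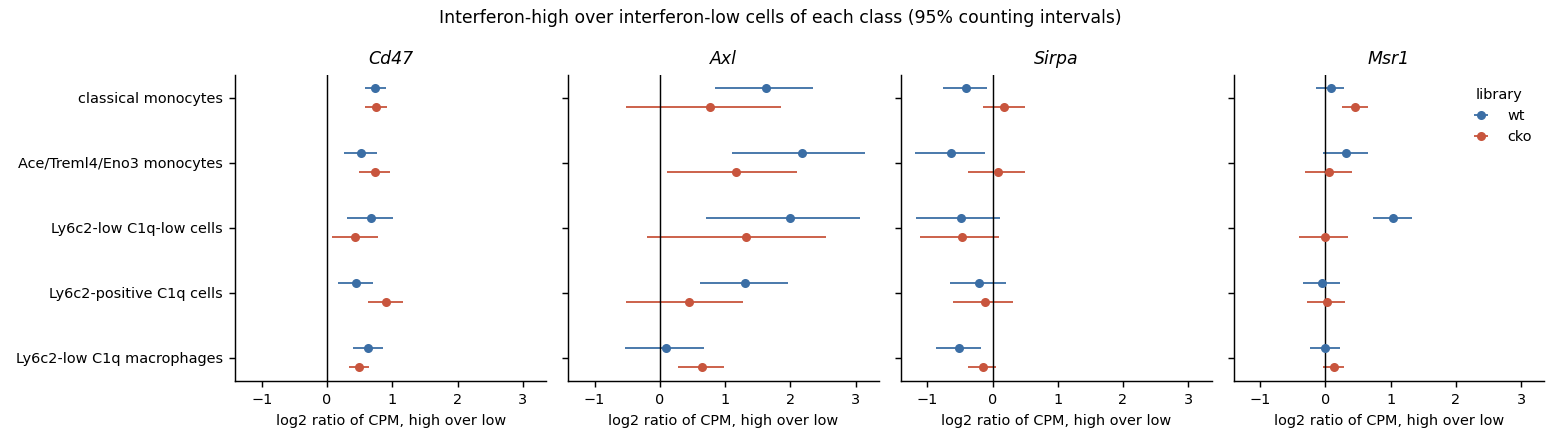
The log2 ratio of CPM in interferon-high over interferon-low cells (x axis) of 5 classes (y axis) in each library, with 95% counting intervals, for Cd47, Axl, Sirpa and Msr1. All 10 values of Cd47 lie above 0 with their intervals, whereas Sirpa lies below 0 in 8 of 10.

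Genes with the most similar profile over the 16 combinations of state and library were sought among 8304 genes by Pearson r of log2(CPM + 1). These values are descriptions, since the points share libraries and depth. Gas6 was most like Ctsb (r = 0.98), Sepp1 and Hpgds, which encode a lysosomal protease, a selenoprotein and a prostaglandin D synthase. Stab1 was most like Pf4 (r = 0.97), Rnf7 and Ftl1, and Mertk most like Naa20 (r = 0.92), Dnase1l3 and Sash1. Axl was nearest to Ddx56 (r = 0.96), Sdc3 and Srsf7, and Sirpa to Mbd3 (r = 0.97), Itga9 and Lgmn. Msr1 was nearest to Fcgr3 (r = 0.95), Slc7a8 and Bcl2l1. Cd47 was nearest to 9930111J21Rik2 (r = 0.95), Herc6 and Apobec3, and Pros1 to Fuca1 (r = 0.82), Trappc1 and Pigf. Cd36 and Cd163 had under 200 UMIs and were not compared. Among the members the closest pairs were Gas6 with Sirpa (r = 0.89), Stab1 with Sirpa (r = 0.88), and Gas6 with Stab1 and with Mertk (r = 0.87 each), and Stab1 and Cd47 had the lowest value (r = -0.80).

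The rest of the clearance pathway was read from a list of 62 further genes. Of the 50 with at least 10 UMIs in the states compared, 10 were at least 2-fold higher in Ly6c2-low C1q macrophages than in classical monocytes in both libraries, 5 were at least 2-fold lower and 35 were neither, beside 8.97% of all genes higher and 3.97% lower. The genes with the largest ratios included Nr1h3, a nuclear receptor for cholesterol products, at 19.3 and 19.8 CPM in classical monocytes and 140 and 164 CPM in macrophages. Abca1, a cholesterol exporter, went from 2.76 and 3.97 to 18.0 and 16.8 CPM. Mrc1, the mannose receptor, went from 50.4 and 23.6 to 289 and 186 CPM, and Il10, a cytokine that dampens inflammation, from 0.230 and 0.496 CPM (1 and 2 UMIs) to 3.43 and 5.26 CPM. Thbs1, a secreted bridging protein, was higher in classical monocytes, at 342 and 353 against 66.4 and 55.3 CPM. Cd24a, another inhibitor of uptake, was lower in macrophages, at 4.81 and 3.79 CPM, with log2 ratios of -2.54 and -2.99. Tyro3, the third kinase of the family of Axl and Mertk, had 1 UMI in all.

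Between the libraries the members differed little when all monocytes and macrophages were summed. By size, 0 of 10 members differed by 1.5-fold, beside 11.1% of 12337 genes. The median log2 ratio of the members, library labelled cko over library labelled wt, was 0.01 and that of all genes 0.05. Msr1 was at 535 and 536 CPM, Sirpa at 319 and 322 CPM and Cd47 at 504 and 507 CPM, with log2 ratios of 0.00 (-0.04 to 0.04), 0.01 (-0.04 to 0.06) and 0.01 (-0.03 to 0.05). Mertk was at 12.4 and 13.1 CPM, a log2 ratio of 0.09 (-0.17 to 0.34). Cd36 was at 5.20 and 4.67 CPM and Cd163 at 3.17 and 4.23 CPM, with intervals that include 0. Stab1, at 43.0 and 33.4 CPM (-0.37, -0.51 to -0.22), and Gas6, at 48.2 and 41.8 CPM (-0.21, -0.34 to -0.07), were lower in the library labelled cko, but without cells over 2 times the median UMIs Gas6 was higher (0.21) and Stab1 was at -0.12. Axl, at 51.6 and 60.2 CPM (0.22, 0.10 to 0.34), and Pros1, at 18.4 and 22.3 CPM (0.27, 0.07 to 0.48), were higher. Pros1 was also at 0.614 CPM (1 UMI) and 4.56 CPM (9 UMIs) in T and NK cells, or 3.33% and 20.5% of the monocyte and macrophage level, and the part of free RNA in its ratio was not tested. Immediate-early and heat-shock genes, the handling genes above, summed to 1294 and 1646 CPM in the same cells and were higher in the library labelled cko in each of the 8 states, and their part in these ratios was not tested. Of the 56 other pathway genes with enough UMIs, 4 were at least 1.5-fold higher and 4 at least 1.5-fold lower in the library labelled cko. The share of all genes past this fold in either direction was the 11.1% given above. Tgfb1, with 12576 UMIs, was among the lower genes, at 465 and 177 CPM (log2 ratio -1.40). The other genes past the fold had at most 91 UMIs each.

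The makeup of the macrophages also differed between the libraries, since Cd300e/Clec4b1/Pparg macrophages were 6.72% and 13.4% of monocytes and macrophages. When each of the 8 states had equal weight, the Axl log2 ratio was -0.02 in place of 0.22. Equal weight also raised the part of interferon-high classical monocytes, 2.70% and 2.12% of the cells, where Axl had 22 and 8 UMIs. The part of any single state in this change was not tested. In the Ly6c2-low C1q macrophages as a whole, where 1 of 10 members (Cd36) differed by 1.5-fold beside 12.2% of all genes, Gas6 was at 121 and 82.3 CPM (log2 ratio -0.55, -0.69 to -0.41), Stab1 at 85.5 and 57.5 CPM (-0.57, -0.74 to -0.40) and Pros1 at 14.4 and 19.9 CPM (0.46, 0.11 to 0.82). Without the UMIs of the cell with most in each library, Cd36 went from a log2 ratio of -1.03 to -0.56 (-1.31 to 0.18) and was no longer past 1.5-fold, and Stab1 was at -0.59, just past it.

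**Figure D5:**
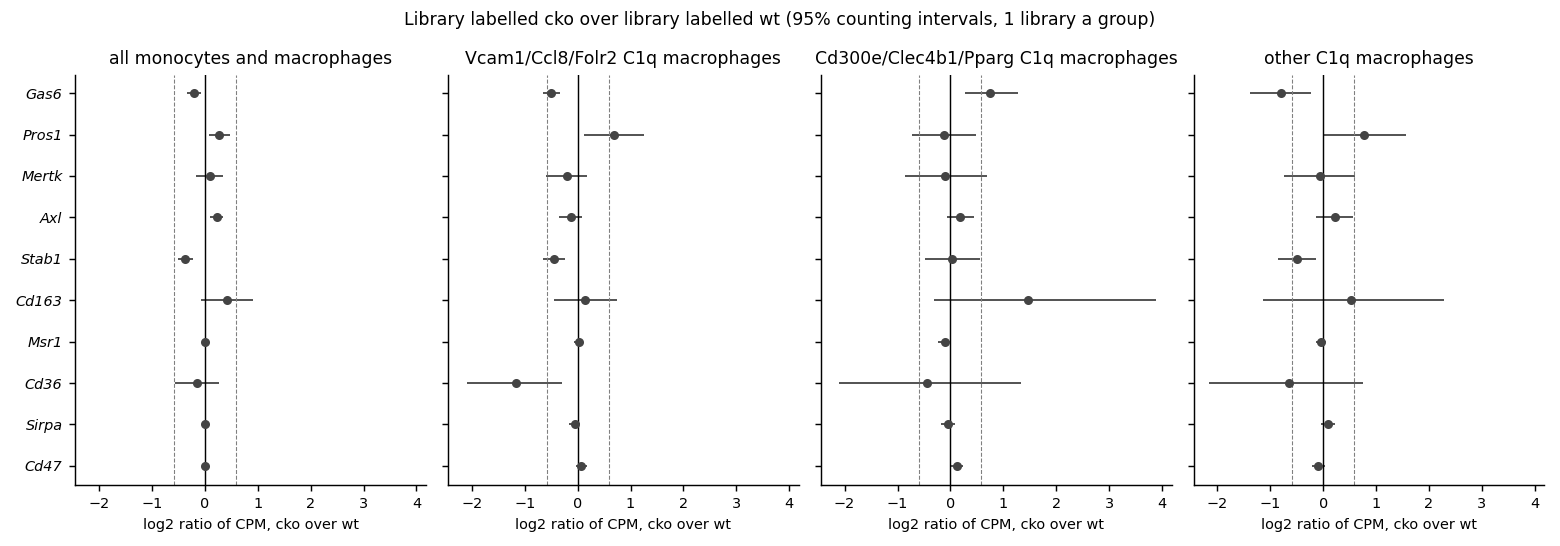
The log2 ratio of CPM, library labelled cko over library labelled wt (x axis), of each gene in all monocytes and macrophages and in the 3 states of Ly6c2-low C1q macrophages, with 95% counting intervals and dashed lines at 1.5-fold. Gas6 lies below 0 in the Vcam1/Ccl8/Folr2 and other C1q macrophages and above 0 in the Cd300e/Clec4b1/Pparg macrophages.

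Within states the ratios of the ligands and of Stab1 varied. In Vcam1/Ccl8/Folr2 macrophages Gas6 was at 246 (229 to 264) and 174 (160 to 189) CPM, a log2 ratio of -0.50 (-0.66 to -0.34), and Stab1 at 134 and 98.2 CPM, a log2 ratio of -0.45 (-0.66 to -0.24). Pros1 was at 13.8 and 22.3 CPM there (0.68, 0.12 to 1.26). By size, 2 of 10 members (Pros1 and Cd36) differed by 1.5-fold in this state, beside 15.1% of all genes, and Cd36 went from a log2 ratio of -1.16 to -0.30 without the UMIs of the top cell of each library. In the other C1q macrophages Gas6 was at 29.2 and 16.7 CPM (-0.80, -1.39 to -0.23), Stab1 at 66.3 and 47.0 CPM (-0.50, -0.85 to -0.14) and Pros1 at 10.0 and 17.1 CPM (0.77, 0.02 to 1.56), and 3 of 10 members passed 1.5-fold beside 15.5%.

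Gas6 had the opposite direction in the Cd300e/Clec4b1/Pparg macrophages, at 25.3 and 42.7 CPM (0.75, 0.27 to 1.27), where it and Cd163 (3 and 17 UMIs) were the 2 of 10 members past 1.5-fold, beside 18.2%. Stab1 (log2 ratio 0.03) and Pros1 (-0.13) differed little there, and Pros1 had log2 ratios of 0.01 in interferon-low classical monocytes and 0.21 in Ly6c2-positive C1q cells. Pparg itself was at 78.8 and 138 CPM and Cd300e at 312 and 438 CPM in this state, so the cells that met the gate were not alike in its markers. Split by Cd300e alone, Ly6c2-low C1q macrophages at or above the limit had Gas6 at 49.2 (38.7 to 61.8) and 48.6 (40.6 to 57.6) CPM. Those at or above the Clec4b1 limit had 158 (142 to 175) and 87.5 (78.5 to 97.2) CPM, and those at or above the Pparg limit 63.5 (37.0 to 102) and 97.7 (79.8 to 118) CPM, so the 3 markers of this gate gave no common direction. Split by Ccl8 alone, Gas6 was at 312 (286 to 340) and 179 (160 to 200) CPM at or above the limit, and at 62.5 (56.1 to 69.4) and 60.4 (55.0 to 66.1) CPM below it. Ccl8 itself was at 1892 and 944 CPM in the Vcam1/Ccl8/Folr2 state. Split by Vcam1 alone, Gas6 was lower in the library labelled cko on both sides, at 236 and 163 CPM at or above the limit and 47.4 and 34.0 CPM below it. Stab1, in contrast, was lower in the library labelled cko on both sides of the Ccl8 limit, at 146 and 99.3 CPM above it and 67.0 and 48.0 CPM below it.

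In the remaining 5 states the members past 1.5-fold were mostly those with few UMIs. In Ly6c2-low C1q-low cells, 4 of 9 members passed 1.5-fold beside 15.9%, namely Gas6 (8 and 19 UMIs), Pros1 (29 and 40), Cd36 (6 and 11) and Stab1 (74 and 35, a log2 ratio of -0.92, -1.54 to -0.32). In Ly6c2-positive C1q cells 4 of 9 did beside 16.9%, namely Mertk (17 and 25 UMIs), Gas6 (26 and 38), Cd36 (19 and 8) and Stab1 (64 and 36, -0.62, -1.25 to -0.01). In Ace/Treml4/Eno3 monocytes 2 of 9 did beside 17.1%, Axl and Cd36, both carried in part by 1 cell as given above. In interferon-low classical monocytes 1 of 9 did beside 12.9%, Mertk with 10 and 18 UMIs, and in interferon-high classical monocytes 1 of 5 did beside 26.9%, Axl with 22 and 8 UMIs. Msr1, Sirpa and Cd47 passed it in none of the 8 states.

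Some ratios between libraries over all monocytes and macrophages changed when the deepest cells were left out. The ratios between libraries within single states were not recomputed in this way. Cells over 2 times the median UMIs of their library made up 55.6% and 46.2% of Vcam1/Ccl8/Folr2 macrophages, against 0.648% and 1.82% of interferon-low classical monocytes. Without them the log2 ratio of Mertk between libraries in all monocytes and macrophages was 0.59 in place of 0.09, beside the values of Gas6 and Stab1 given above.

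The microRNA deleted by design was compared with the members in sequence. The mature mmu-miR-21a-5p, encoded at chr11:86584120-86584141 on the minus strand (GRCm38.p6), is shown with its seed, bases 2 to 8, in capitals.

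mmu-miR-21a-5p: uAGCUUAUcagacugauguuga

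Its 7-base seed match, ATAAGCT, occurred in the longest annotated 3′ UTR of 0 of the 10 members, beside 7.16% of 20725 genes. A match is a description and no match says only that these letters are not in that sequence.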

How the data were processed

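UMI counts per gene and cell were used as the authors deposited them, as 1 sparse matrix a library with shared gene names. The submitters' processing notes name Cell Ranger, Seurat and mm10, and versions are not given in the sources used here. Cells with under 200 genes or over 10% mitochondrial UMIs were left out. Cells needed at least 4 UMIs in sum of marker genes that include Csf1r, Adgre1 and Fcgr1 to enter the monocyte and macrophage gate. Droplets that met the markers of more than 1 lineage, or of no lineage, stayed ungated (284 and 323 for both kinds together). C1q states needed 20 UMIs per 10000 of C1qa, C1qb and C1qc, and Ly6c2 and the marker-defined states needed 2 per 10000. Cells went to the marker set (Vcam1, Ccl8 and Folr2, or Cd300e, Clec4b1 and Pparg) with the larger sum, and ties to the other C1q macrophages. Scrublet in scanpy 1.11.5 marked 2 and 5 cells as doublets, too few to have worked, so doublets were kept and an alternative left out the highest-scoring 48 and 59 cells.

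UMIs were summed per state and library (scipy 1.17.1, pandas 2.3.3, numpy 2.4.6, Python 3.11.15). Poisson intervals, Clopper-Pearson intervals for shares and conditional binomial intervals for ratios were exact. Without replicates no p-values were computed. Members with fewer than 10 UMIs over both sums of a comparison were not counted, and the same held for all genes. The 10 members were all named, with the 3 genes most alike to each and the 6 pathway genes of largest ratio. The calculation was tested on simulated data. Members, lists and gates were chosen with earlier results of these data known. Gene positions are from GENCODE and promoters from RefSeq, both on GRCm38.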

Additional observations from a re-analysis of the deposited data

Results flagged for a closer look

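Stab1 was found in cells that no comparison used. The 4 cells of the library labelled wt left out by quality held Stab1 at 1539 CPM, from 23 UMIs of which 16 were in 1 cell, and the 14 cells of the library labelled cko held it at 284 CPM, from 19 UMIs. Both values were above the 134 and 98.2 CPM of Vcam1/Ccl8/Folr2 macrophages. These cells also held C1qa at 2208 and 2708 CPM, and the cause was not tested.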

How the results depend on the processing

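No paired analysis was possible because each group has 1 library, and for the same reason no replicate could be left out. The count of members past 1.5-fold between libraries was 0 and became 1 (Mertk) when cells over 2 times the median UMIs were left out, and the other 8 alternatives left it at 0. The median log2 ratio of members stayed between -0.03 and 0.15 over 9 alternatives. The count at least 2-fold higher in macrophages was 5 or 6 over 12 alternatives, being 5 at a C1q limit of 40, where Cd36 was lost, and the count lower was 0 in all 12. No value past its fold limit changed sign. Gas6 between libraries, within that limit, was 0.21 in place of -0.21 without the deep cells. Size-factor scaling shifted all genes by -0.04 between libraries and by -0.10 and -0.08 between states. Without its top cell in each state Cd163 had 0 UMIs in classical monocytes, and its log2 ratio was at least 3.32 and 3.39 against a floor of 3 counts per library. The settings without keratin-rich cells and without top cells were chosen after the data were seen. Cd36 and Cd163 had the fewest UMIs of the members, at 196 and 148 in the monocytes and macrophages of both libraries.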
